A study of Drosophila melanogaster with 8 samples.

Results

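The 4 dopamine receptor genes of Drosophila melanogaster, Dop1R1, Dop1R2, Dop2R and DopEcR, were followed in RNA from clock neurons and from neurons of all kinds. They were chosen by name, and all 4 of 4 were found among the 17868 genes counted in each of 8 libraries. Neurons were labeled with EGFP, sorted by FACS from dissected brains and compared between genotypes and between times of day. Clock neurons came from clk856 > EGFP flies, in which the clk856-GAL4 driver labels most of the clock network. Neurons of all kinds came from nSyb > EGFP flies, in which the driver takes its expression from a synaptic vesicle gene. Flies were kept under light-dark cycles, and at ZT2 (2 h after lights on) and at ZT14 (2 h after lights off) a pair of libraries, R1 and R2, was made from each genotype. All flies were untreated males of about 2 weeks of age, every animal carried a GAL4 driver and the EGFP reporter, and a library pooled cells of many brains, with fewer cells sorted for clk856 than for nSyb. According to the methods, a dissociated sample was sorted into more than 1 set of cells, so that R1 and R2 may share a dissociation. P values then measure only the spread between these samples, which may be technical.

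Dopamine acts on nerve cells through G protein-coupled receptors, which change the level of cAMP or calcium within the cell. In flies it promotes wakefulness and carries reward and punishment signals to the mushroom body, and clock neurons are among the cells that receive it. Dop1R1 and Dop1R2 are D1-like receptors. Dop1R1 raises cAMP through the stimulatory G protein, and Dop1R2 also couples to a G protein that mobilizes calcium. Dop2R is the D2-like receptor, which couples to inhibitory G proteins, lowers cAMP and also serves dopaminergic neurons as an autoreceptor. DopEcR is a membrane receptor that binds both dopamine and the steroid hormone ecdysone.

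In the dm6 genome Dop1R1 (FBgn0011582) lies on chromosome arm 3R at 14165379 to 14214810, with 5 annotated transcripts. Dop1R2 (FBgn0266137) lies on the same arm at 29630304 to 29659984, with 3 transcripts. Dop2R (FBgn0053517) lies on chromosome X at 20004680 to 20062706, with 6 transcripts, and DopEcR (FBgn0035538) on arm 3L at 4367649 to 4380387, with 3 transcripts. All 4 genes are on the minus strand, and 0 of their exon bases are shared with exons of another annotated gene. The genes differ in build. Merged exons cover 14565 bases in Dop1R1, 5164 in Dop1R2, 6530 in Dop2R and 4291 in DopEcR, and introns make up between 66.3% of the span (DopEcR) and 88.7% (Dop2R). The longest coding sequence is 1680 bases for Dop1R1, 2421 for Dop1R2, 2715 for Dop2R and 966 for DopEcR.

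Reads counted on genes numbered 4823985 to 8439193 per library for clk856 and 7970236 to 8449829 for nSyb. The sort was checked by clock genes and by markers of other cells. Pdf, the neuropeptide of the ventrolateral clock neurons, had a mean of 273 RPM in clk856 against 0.0825 in nSyb, and 6 of 6 clock markers were higher in clk856. The 6 general neuronal markers summed to 3025 to 3169 RPM in clk856 and 3131 to 3600 RPM in nSyb, with brp higher, cac lower and 4 not past the test. In clk856 the transcription factor gene Clk averaged 55.1 RPM against 0.040 in nSyb, and tim, which encodes a clock protein, averaged 269.8 RPM against 9.81. Glial markers were low, with 6 genes summing to 76.2 to 120 RPM in clk856 and 135 to 302 RPM in nSyb, without overlap. Of the 5 tested, Eaat1 was lower in clk856 (log2 fold change −1.78, edgeR adjusted p = 0.0456) and 4 did not pass. Of 7 photoreceptor markers, norpA carried nearly the whole sum, and ninaA and Arr2 had 0 reads in every library. The 2 tested, norpA and inaD, were both lower in clk856 (edgeR adjusted p = 0.0377 and 0.00668). Kenyon cell markers, for mushroom body neurons, summed to 559 to 629 RPM in clk856 and 543 to 746 RPM in nSyb, ranges that overlapped. Of these 5 genes, prt was lower in clk856 (log2 fold change −1.49, edgeR adjusted p = 0.0249) and 4 did not pass. Lsp2, a fat body marker, was at 0 reads throughout, and the sum of 4 blood and fat cell markers reached at most 13.7 RPM. Markers of dopaminergic neurons (3 genes, described below) were not low in clk856. They summed there to 1430 to 2672 RPM, above the sum of the 6 clock markers (303 to 1348 RPM) in every clk856 library.

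Dop2R showed the largest difference between clock neurons and neurons of all kinds. Its RNA was 7.67-fold higher in clk856 than in nSyb, while Dop1R1 and DopEcR were 1.49-fold and 1.39-fold higher in nSyb, and Dop1R2 did not pass the test. Of the 4 receptors 3 were called (edgeR adjusted p under 0.05), 1 higher and 2 lower in clk856. Over all 7784 genes tested 1326 were called, or 17.0%, with 10.3% higher and 6.69% lower in clk856.

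RPM here is the deposited value, the read number of a gene scaled by a library total whose origin is not given. Over all genes RPM summed to 473369 to 480808 per library in clk856 and 453194 to 460728 in nSyb. RPM values are therefore lower than reads per 1000000 reads on genes. For Dop2R the clk856 libraries had 207.5 (ZT2 R1), 269.9 (ZT2 R2), 282 (ZT14 R1) and 157 RPM (ZT14 R2). The nSyb libraries had 15.4, 35.8, 15.6 and 58.8 RPM in the same order. The groups lay far apart, and the lowest clk856 library was 2.68 times the highest nSyb library. Means were 229 ± 57.9 RPM in clk856 and 31.4 ± 20.6 RPM in nSyb (SD, n = 4 each). The log2 fold change was 2.94 (SE 0.43, edgeR adjusted p = 0.00146), a fold of 7.67 with a 95% interval of 3.93 to 15.0. An exact two-sided permutation test gave p = 0.0286, the smallest that 4 libraries against 4 allow. Of all genes tested, 177 (2.27%) had a larger log2 fold change toward clk856. Within a single time point, 2 libraries against 2, the log2 fold change was 3.28 at ZT2 (edgeR adjusted p = 0.0646) and 2.65 at ZT14 (edgeR adjusted p = 0.101), so that the call rests on both times together. In bulk RNA such as this, fewer cells that carry a receptor and less receptor RNA per cell cannot be told apart.

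Dop1R1, the D1-like receptor that raises cAMP, went the other way. It stood at 105, 134, 111 and 140 RPM in the clk856 libraries, in the order ZT2 R1, ZT2 R2, ZT14 R1 and ZT14 R2. In nSyb it stood at 226, 181, 184 and 174 RPM. Every nSyb library was above every clk856 library, with means of 123 ± 17.1 and 191 ± 23.4 RPM (SD, n = 4 each). The log2 fold change was −0.57 (SE 0.13, edgeR adjusted p = 0.0146), that is 1.49-fold higher in nSyb (95% interval 1.21 to 1.83), and the exact permutation p was 0.0286. At ZT2 alone it was −0.69 (edgeR adjusted p = 0.153) and at ZT14 alone −0.43 (edgeR adjusted p = 0.176).

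DopEcR, the receptor shared by dopamine and ecdysone, was also lower in clk856. Its values were 250.2, 287, 306 and 253 RPM in clk856 and 344, 369, 456 and 434 RPM in nSyb, in the same order of libraries. The groups did not overlap. Means were 274 ± 27.3 and 401 ± 53.1 RPM (SD, n = 4 each), with a log2 fold change of −0.48 (SE 0.12, edgeR adjusted p = 0.0185, exact permutation p = 0.0286), 1.39-fold higher in nSyb (95% interval 1.17 to 1.67). This call was lost when either of 2 clk856 libraries was left out, with an edgeR adjusted p of 0.0608 without ZT2 R1 and 0.0662 without ZT14 R2. At ZT2 alone the log2 fold change was −0.33 (edgeR adjusted p = 0.312) and at ZT14 alone −0.59 (edgeR adjusted p = 0.0877).

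Dop1R2, the D1-like receptor with the additional calcium coupling, did not pass the test. It had 72.7, 53.6, 24.3 and 58.1 RPM in clk856 and 42.8, 33.0, 22.5 and 37.7 RPM in nSyb. In clk856, 3 of 4 libraries lay above all nSyb libraries, and ZT14 R1 lay among them. Means were 52.2 ± 20.3 and 34.0 ± 8.68 RPM (SD, n = 4 each). The log2 fold change of 0.69 (SE 0.33, edgeR adjusted p = 0.195, exact permutation p = 0.143) corresponds to a 95% interval from 0.97-fold to 2.68-fold, so that neither no difference nor a doubling lies outside it. Without clk856 ZT14 R1 it was 0.92 (edgeR adjusted p = 0.0466), and this single library therefore decided the call.

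The groups of 3 of the 4 receptors did not overlap in RPM, where 25.8% of all genes tested had groups that did not overlap. Reads behind the values numbered 272 to 8000 per receptor and library, which gives a 95% Poisson interval of at most −11.5% to 12.6% around a value, for Dop2R in nSyb. Such intervals cover counting error only. The spread between nSyb libraries of Dop2R, 3.81-fold from lowest to highest, was far wider. Between clk856 libraries Dop2R varied 1.79-fold, Dop1R2 3.0-fold, Dop1R1 1.33-fold and DopEcR 1.22-fold.

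**Figure D1:**
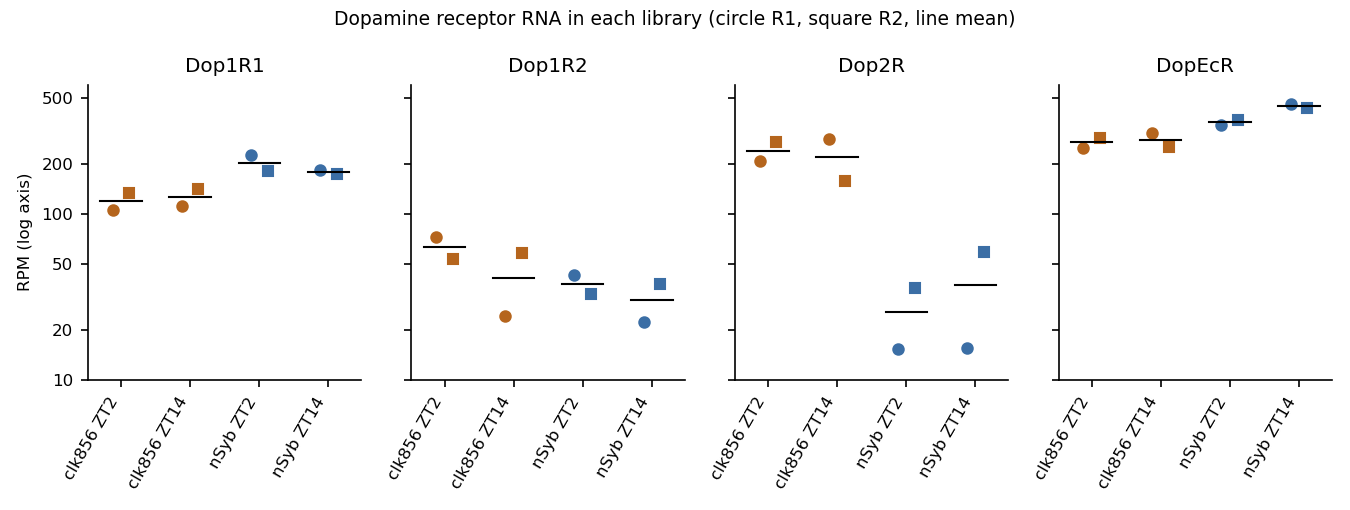
RPM of each dopamine receptor (log axis) in clk856 (orange) and nSyb (blue) libraries at ZT2 and ZT14, with circles for R1, squares for R2 and a line at the mean of each pair. Dop2R lies between 157 and 282 RPM in clk856 and between 15.4 and 58.8 RPM in nSyb, while Dop1R1 and DopEcR are higher in every nSyb library.

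Markers of dopaminergic neurons moved with Dop2R between genotypes. Tyrosine hydroxylase (ple), the dopamine transporter DAT and the vesicular monoamine transporter Vmat were all higher in clk856 (3 of 3). Over all genes tested 10.3% were higher. The summed RPM of these markers was 1430 to 2672 in clk856 against 82.6 to 687 in nSyb. Ddc, a dopamine synthesis gene not among these markers, was lower in clk856 (log2 fold change −0.47, edgeR adjusted p = 0.014). In clk856, ple had 301, 336, 713 and 374 RPM in the order used above, and in nSyb 41.1, 67.9, 124 and 20.2 RPM. DAT was at 359, 364, 586 and 398 RPM against 50.6, 76.5, 202 and 30.3 RPM, and its groups did not overlap either. The groups of 25.8% of all genes tested did not overlap. Among the nSyb libraries the order of Dop2R was different from that of these markers. ZT14 R2 had the highest Dop2R (58.8 RPM) and the lowest marker sum (82.6 RPM), while ZT14 R1 had the highest marker sum (687 RPM) and 15.6 RPM of Dop2R. Among the clk856 libraries ZT14 R1 had the highest of both (282 RPM of Dop2R, marker sum 2672 RPM). The lowest clk856 marker sum (1430 RPM) was in ZT2 R2, with 270 RPM of Dop2R. The lowest clk856 Dop2R (157 RPM) was in ZT14 R2, with a marker sum of 1911 RPM. The part of dopaminergic cells in the Dop2R difference between genotypes was not tested.

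Levels of different receptors were compared per length: reads on a gene were divided by the reads on all genes in units of 1000000 reads and by the merged exon length in kilobases, a value written below as exon-length level. In clk856 the order was DopEcR (134 ± 13.3), Dop2R (73.7 ± 18.6), Dop1R2 (21.2 ± 8.29) and Dop1R1 (17.7 ± 2.36; SD, n = 4). The first and second places were held in every clk856 library without overlap. The ranges of Dop1R2 (9.91 to 29.7) and Dop1R1 (15.2 to 20.2) overlapped, so that the 2 lower places were not resolved. In nSyb the order was DopEcR (205 ± 27.0), Dop1R1 (28.8 ± 3.47), Dop1R2 (14.4 ± 3.61) and Dop2R (10.5 ± 6.85). DopEcR and Dop1R1 again did not overlap with their neighbors, whereas Dop1R2 (9.57 to 18.1) and Dop2R (5.16 to 19.6) did. Dop2R thus stood second in 4 of 4 clk856 libraries and last in 3 of 4 nSyb libraries. With the longest coding sequence as length, Dop1R1 was above Dop1R2 in clk856 as well (153 against 45.2 on that scale), and the first and second places stayed with DopEcR and Dop2R by mean, with overlapping ranges for Dop2R (122 to 219) and Dop1R1 (132 to 175).

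The summed level of the 4 receptors overlapped between genotypes, with 247 ± 24.4 in clk856 and 258 ± 24.3 in nSyb (exon-length level, SD, n = 4), while its make-up differed. Dop2R made up 28.5%, 32.3%, 34.0% and 23.2% of the summed level in the clk856 libraries (ZT2 R1, ZT2 R2, ZT14 R1, ZT14 R2) and 2.22%, 4.97%, 1.90% and 6.96% in the nSyb libraries. DopEcR made up 52.4% to 56.7% in clk856 and 75.4% to 84.6% in nSyb. The share of Dop1R1 was 7.24% ± 1.43 in clk856 and 11.3% ± 2.35 in nSyb, and that of Dop1R2 was 8.82% ± 3.89 and 5.68% ± 1.77 (SD, n = 4 each). The level of the inhibitory D2-like receptor relative to both D1-like receptors together, Dop2R over Dop1R1 plus Dop1R2, ran from 1.16 to 3.50 in clk856 and from 0.0993 to 0.467 in nSyb. Whether D2-like RNA exceeded D1-like RNA in clk856 turned with the length used. The ratio was above 1 in 4 of 4 clk856 libraries with merged exon length, in 1 of 4 with coding length (0.540 to 1.36), in 2 of 4 with deposited length (0.566 to 1.58) and in 3 of 4 by reads without a length (0.795 to 2.08). In nSyb it was below 1 in 4 of 4 libraries on each of these scales, at most 0.467, and on each scale the clk856 and nSyb ranges did not overlap. Dop1R1 over Dop1R2 was 0.512 to 1.63 in clk856 and 1.64 to 2.90 in nSyb. These shares and ratios are descriptions without a test and depend on the length used.

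**Figure D2:**
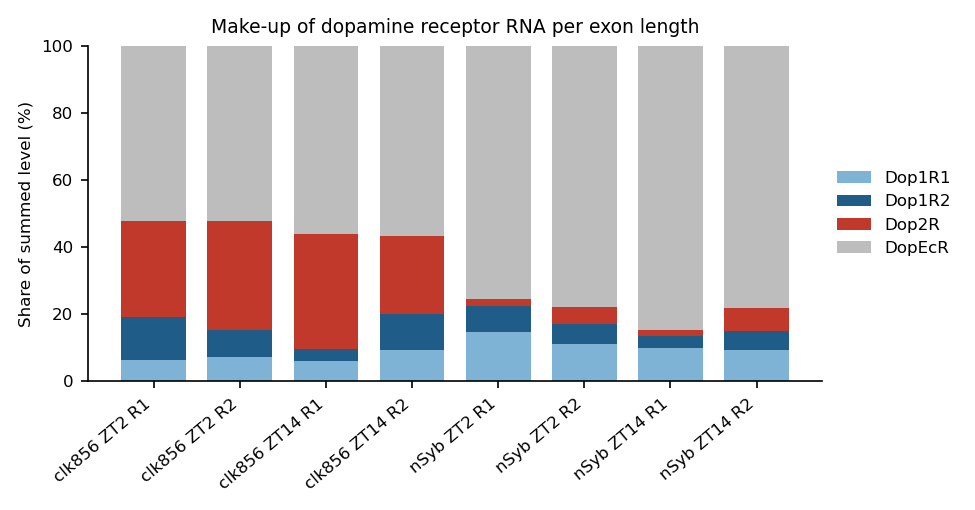
Share (%) of each receptor in the summed level of the 4 dopamine receptors, per kilobase of merged exons, in each of the 8 libraries. The Dop2R segment takes 23.2% to 34.0% of a clk856 bar and 1.90% to 6.96% of an nSyb bar, and DopEcR is the largest segment in all 8.

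Time of day was examined next, since many transcripts cycle in clock neurons. None of the 4 receptors passed the edgeR test between ZT14 and ZT2 in either genotype. In clk856, 2 of 8188 genes were called (0.0244%), tim and vri, both clock genes, and 554 genes had an unadjusted p under 0.05. In nSyb, 0 of 7671 genes were called (0%) by the edgeR quasi-likelihood test, with 303 genes at an unadjusted p under 0.05, 6 called by the likelihood ratio test and 224 by DESeq2.

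In clk856 the means at ZT2 and ZT14 were 120 and 126 RPM for Dop1R1, 239 and 219.7 RPM for Dop2R, and 269 and 279.6 RPM for DopEcR (n = 2 each). The log2 fold changes, ZT14 minus ZT2, were 0.07 (SE 0.19), −0.12 (SE 0.29) and 0.05 (SE 0.15), with edgeR adjusted p of 0.98, 0.972 and 0.979. Dop1R2 had the largest change, from 63.2 to 41.2 RPM, with a log2 fold change of −0.63 (SE 0.41, edgeR adjusted p = 0.813). Its 2 ZT14 libraries, at 24.3 and 58.1 RPM, lay on both sides of the ZT2 library at 53.6 RPM. The 95% intervals in clk856 reached from a 1.31-fold fall to a 1.44-fold rise for Dop1R1, from 1.24-fold down to 1.34-fold up for DopEcR, from 1.77-fold down to 1.51-fold up for Dop2R, and from 3.07-fold down to 1.28-fold up for Dop1R2. Changes within those intervals were not excluded with 2 libraries at each time. RPM did not overlap between time points for 0 of the 4 receptors in clk856, against 38.5% of all genes tested.

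In nSyb, DopEcR was the only receptor whose time points did not overlap (1 of 4, against 32.4% of all genes tested), with 344 and 369 RPM at ZT2 and 456 and 434 RPM at ZT14. Its log2 fold change of 0.30 (SE 0.14) had an unadjusted p of 0.0795 and an edgeR adjusted p of 0.9999. Dop1R1 changed by −0.20 (SE 0.18), Dop1R2 by −0.35 (SE 0.45) and Dop2R by 0.51 (SE 0.77) on the log2 scale, each with an edgeR adjusted p of 0.9999. For Dop2R the R1 libraries were nearly equal, with 15.4 RPM at ZT2 and 15.6 RPM at ZT14, and the R2 libraries had 35.8 and 58.8 RPM. Left out in turn, single nSyb libraries moved it between −0.73 and 1.29, and without ZT14 R2 it was the lower of these. With 2 libraries against 2, the smallest p of an exact permutation test is 0.333.

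The difference of the time effects between genotypes was tested as an interaction over 8926 genes, of which 1 was called (0.0112%) and 581 had an unadjusted p under 0.05. For Dop1R1 it was 0.25 (SE 0.27), for Dop1R2 −0.30 (SE 0.63), for Dop2R −0.65 (SE 0.88) and for DopEcR −0.27 (SE 0.21) on the log2 scale, with edgeR adjusted p of 0.968, 0.9998, 0.9998 and 0.913. The called gene was none of the 4.

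**Figure D3:**
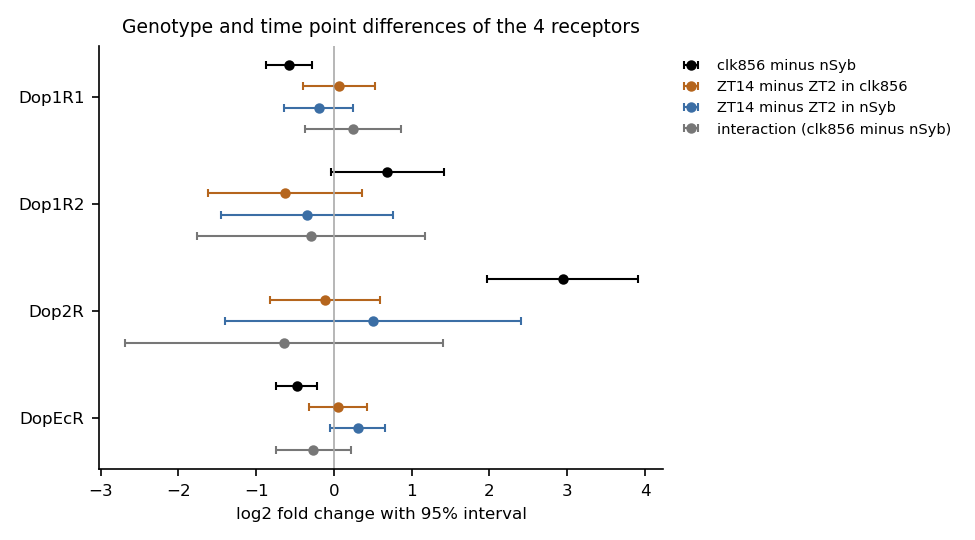
Log2 fold changes of the 4 receptors with 95% intervals from edgeR, for clk856 minus nSyb (black), ZT14 minus ZT2 in clk856 (orange) and in nSyb (blue), and the interaction (gray). Of the intervals plotted, those of the genotype difference for Dop1R1 (−0.57), Dop2R (2.94) and DopEcR (−0.48) lie off 0, and all time and interaction intervals include 0.

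The dopamine receptors were then placed among the 17 receptor genes for monoamines, the group that also holds the receptors for serotonin (5-HT), octopamine and tyramine. Of the other 13 genes 12 were tested, 4 were higher and 1 was lower in clk856 and 7 did not pass, against 10.3% higher and 6.69% lower over all genes, with a median log2 fold change of 0.71 against −0.01 over all genes tested. The serotonin receptors 5-HT1A and 5-HT7 were higher, with log2 fold changes of 2.13 (SE 0.21) and 1.89 (SE 0.41) and edgeR adjusted p of 0.000138 and 0.0106. Oct-TyrR, a receptor for octopamine and tyramine, and the octopamine receptor Oamb were higher by 1.27 (SE 0.27) and 1.23 (SE 0.32), with edgeR adjusted p of 0.0106 and 0.0243. The call of Oamb was lost without any 1 of the 4 ZT2 libraries (edgeR adjusted p = 0.0524 to 0.0781). Octbeta1R, an octopamine receptor, was lower by −0.96 (SE 0.18, edgeR adjusted p = 0.00501). Dop2R had the highest fold change of the 16 monoamine receptors tested.

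By exon-length level, DopEcR stood highest of all 17 in all 8 libraries. Dop2R was second of 17 in each clk856 library and between place 5 and place 14 in the nSyb libraries. In nSyb the second place belonged to Octbeta1R (72.2 ± 15.7 against 34.0 ± 4.60 in clk856, exon-length level, SD, n = 4). Behind Dop2R in clk856 came 5-HT1A at 40.8 ± 7.64, whose highest library (50.6) reached the lowest of Dop2R (50.5). By mean, Dop1R1 was at place 3 in nSyb and place 10 in clk856, and Dop1R2 was at place 9 in both. The dopamine receptors together held 48.8% of the monoamine receptor level in clk856 (45.1% to 53.5%) and 54.2% in nSyb (51.7% to 57.3%), shares that overlapped. These places and shares rest on merged exon length, which is 14565 bases for Dop1R1. By mean RPM, Dop1R1 (191) was above Octbeta1R (178) in nSyb. With coding length the clk856 ranges of Dop2R (122 to 219) and Dop1R1 (132 to 175) overlapped.

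**Figure D4:**
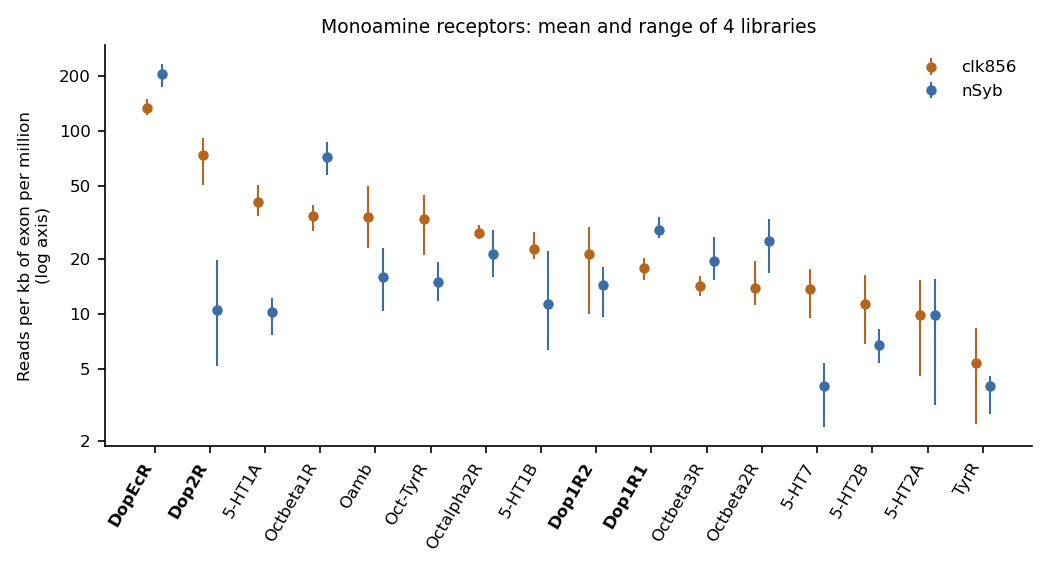
Exon-length level of monoamine receptor genes (log axis), with points at the mean and lines over the range of 4 clk856 (orange) or 4 nSyb (blue) libraries. The dopamine receptors are in bold, Dop2R is at place 2 in clk856 (73.7) and place 11 in nSyb (10.5), and TyrRII, which had a level of 0 in some libraries, is not drawn.

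Genes for the making, packaging and removal of dopamine went in both directions. Of 8 genes, 6 were tested, 3 were higher, 2 were lower and 1 did not pass, where 10.3% of all genes tested were higher and 6.69% lower, with a median log2 fold change of 1.60. The 3 higher genes were ple, which makes L-DOPA (log2 fold change 2.82, SE 0.52, edgeR adjusted p = 0.00481), Vmat, which loads amines into vesicles (2.80, SE 0.58, edgeR adjusted p = 0.00895), and DAT, which takes dopamine back up (2.31, SE 0.51, edgeR adjusted p = 0.0117). Vmat also serves neurons that release other amines. Dopa decarboxylase (Ddc), which makes dopamine and serotonin, was lower by −0.47 (SE 0.11, edgeR adjusted p = 0.014), and AANAT1, which acetylates amines, was lower by −1.28 (SE 0.21, edgeR adjusted p = 0.00227). Pu, which makes the cofactor of tyrosine hydroxylase, had 62.4 RPM in clk856 and 35.3 RPM in nSyb (edgeR adjusted p = 0.0697).

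Heterotrimeric G proteins link the receptors to adenylyl cyclase and other effectors. Of 11 genes 9 were tested, 1 was higher, 2 were lower and 6 did not pass, against 17.0% called over all genes, with a median of −0.10. Galphao, an alpha subunit of the inhibitory class, was higher in clk856 by 0.59 (SE 0.12, edgeR adjusted p = 0.00767), at a mean of 208 against 145 RPM. The gamma subunits Ggamma30A and Ggamma1 were lower by −0.93 (SE 0.08, edgeR adjusted p = 6.7e-05) and −0.48 (SE 0.08, edgeR adjusted p = 0.00397). In clk856 and nSyb the stimulatory subunit Galphas had 163 and 184 RPM, and Galphaq, the subunit of the calcium pathway, had 72.2 and 67.6 RPM. The inhibitory subunit Galphai was low, with means of 2.54 and 1.81 RPM. It ranged from 2.00 to 2.80 RPM in clk856 and from 0 to 7.24 RPM in nSyb, where the mean rests on the highest library. Galphas, Galphaq and Galphai did not pass.

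Downstream in the cAMP pathway 16 of 17 genes were tested, 5 were higher, 2 were lower and 9 did not pass, against 10.3% higher and 6.69% lower over all genes, with a median of 0.30. One of the 5, Pde8, passed in 6 of 17 refits with other settings or libraries. The highest was Pde11, a phosphodiesterase that degrades cyclic nucleotides, at 85.5 against 19.5 RPM (log2 fold change 2.2, SE 0.32, edgeR adjusted p = 0.00129). Ac13E, an adenylyl cyclase, and Pka-R1, a regulatory subunit of protein kinase A, were higher by 1.54 (SE 0.41, edgeR adjusted p = 0.0285) and 1.30 (SE 0.17, edgeR adjusted p = 0.000847). The call of Ac13E was lost without clk856 ZT2 R1, ZT2 R2 or ZT14 R2 or without nSyb ZT14 R1 (edgeR adjusted p = 0.0659 to 0.0895). Pka-C3, a kinase of the catalytic subunit family, was lower by −1.53 (SE 0.31, edgeR adjusted p = 0.00734) and Epac, a cAMP-dependent exchange factor, by −0.62 (SE 0.12, edgeR adjusted p = 0.00684). The cyclase rut and the phosphodiesterase dnc, both known from dopamine-dependent learning, had log2 differences of −0.03 (SE 0.22) and 0.01 (SE 0.17), with edgeR adjusted p of 0.955 and 0.981.

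Of 7 genes that switch receptors off or act on G proteins and beyond, 4 were higher, 1 was lower and 2 did not pass, against 10.3% higher and 6.69% lower over all genes, with a median of 0.46. Of the 4, Akt1 passed in 5 and sgg in 2 of 17 refits with other settings or libraries. They included the receptor kinases, whose members went in opposite directions. Gprk2 was higher by 1.68 (SE 0.31, edgeR adjusted p = 0.00502) and Gprk1 lower by −0.62 (SE 0.12, edgeR adjusted p = 0.00638). Akt1, a kinase that acts with arrestin downstream of D2 receptors in mammals, had 15.5 against 3.87 RPM, a log2 fold change of 2.06 (SE 0.61, edgeR adjusted p = 0.0429), and RSG7, a regulator of G protein signaling, was higher by 0.78 (SE 0.14, edgeR adjusted p = 0.00437). The call of Akt1 was lost without any 1 of the 4 clk856 libraries or the 2 nSyb libraries of ZT14 (edgeR adjusted p = 0.0531 to 0.154). The arrestin krz had 36.9 and 28.3 RPM (edgeR adjusted p = 0.542). Other genes of ecdysone signaling gave 0 calls of 4 by edgeR, with a median of −0.01. They were the nuclear receptor genes EcR and usp, the importer EcI (Oatp74D in the annotation) and the coactivator tai. The edgeR quasi-likelihood test called 0 genes of these lists between time points or in the interaction, and other fits called up to 2 in a list. Those were 1 monoamine receptor lower and 1 gene of dopamine synthesis, transport and turnover higher at ZT14 in clk856 without a filter, 2 monoamine receptors higher at ZT14 in nSyb by DESeq2, and 2 monoamine receptors in the interaction by the likelihood ratio test, without a filter and by DESeq2. None of them was a dopamine receptor.

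**Figure D5:**
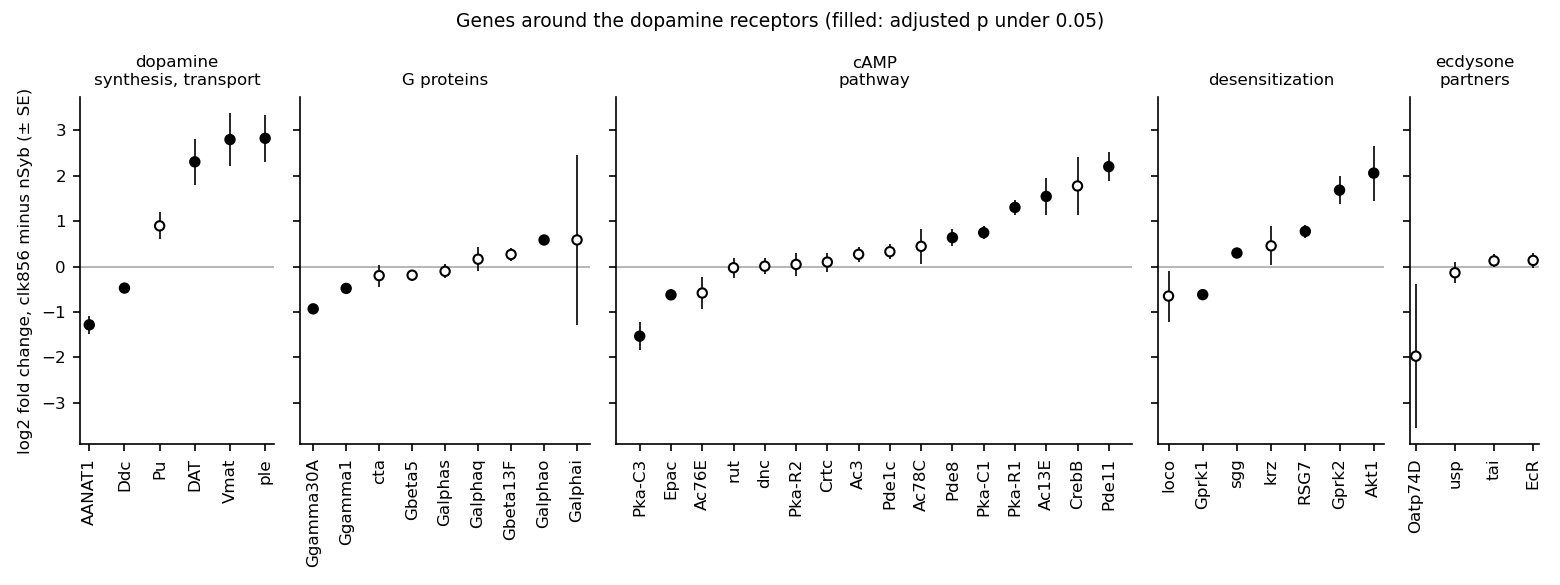
Log2 fold change (clk856 minus nSyb, bars ± SE) of the tested genes of dopamine synthesis and transport, G proteins, the cAMP pathway, desensitization and other ecdysone genes (labeled ecdysone partners), with filled points for an edgeR adjusted p under 0.05. Gene by gene the highest values are those of ple (2.82), Vmat (2.80), DAT (2.31) and Pde11 (2.2).

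Genes with the pattern most like each receptor over the 8 libraries were found by the Pearson correlation of log2 CPM across 6665 genes with a mean of at least 10 CPM. The 8 libraries span both genotypes and both time points, so that r includes the difference between genotypes. For Dop2R the most alike were exd (r = 0.991), enc (0.991) and Sur-8 (0.985), and 283 genes had r over 0.9. For Dop1R1 they were Cht11 (0.988), Scp2 (0.978) and Arp10 (0.976), for DopEcR side-VI (0.971), Ubc6 (0.969) and CG9265 (0.968), and for Dop1R2 CG13982 (0.925), roq (0.901) and Gycalpha99B (0.876). Dop1R2 was the receptor with the fewest genes of like pattern, 2 with r over 0.9, against 45 for DopEcR and 86 for Dop1R1. Among the receptors themselves r ran from −0.91 (Dop1R1 and Dop2R) to 0.63 (Dop1R1 and DopEcR).

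The nearest tested genes on either side of each receptor were also read, since neighbors can share reads or regulation. Of these 8 genes 1 passed, against 17.0% over all genes, namely Syx17, which lies 23100 bases from DopEcR and was lower in clk856 by −0.98 (edgeR adjusted p = 0.0354). Beside Dop2R, Nep3 had a log2 difference of 0.20 (edgeR adjusted p = 0.628) at a distance of 35357 bases and aspr one of 3.41 (edgeR adjusted p = 0.333) at 85418 bases. The closest neighbors lay on the same strand as their receptor. CG11342, 191 bases from DopEcR, had a log2 difference of 0.67 (edgeR adjusted p = 0.724). CG9649, 649 bases from Dop1R1, had one of −0.08 (edgeR adjusted p = 0.966).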

How the data were processed

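RNA was sequenced from 8 libraries of sorted neurons after poly(A) cDNA amplification (Smart-seq2, Nextera XT). The authors aligned reads to dm6 with STAR, removed PCR duplicates with Picard and deposited the count of raw reads per gene. Deposited RPM values are these counts scaled by a library total whose origin is not given in the sources used here, nor are the annotation release, counter and strand setting. Deposited lengths were the gene span plus 1 for 99.3% of genes compared, so RPKM was not used. Reads without a gene (no feature 5.53% to 8.94%, ambiguous 5.67% to 6.10% of reads) were left out.

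Counts were tested with edgeR 4.0.16 (TMM, filterByExpr minimum count 10, quasi-likelihood test, Benjamini-Hochberg adjusted p under 0.05) over all genes. Genotypes were compared 4 against 4 without covariate, time points 2 against 2 within genotype, and the interaction over 4 groups. DESeq2 1.42.0 was an alternative, with other normalizations and filters, time as covariate, each time alone, the replicate block, all 8 libraries in a time fit, other lengths, and each library left out. Exact permutation tests were two-sided on RPM. Exon and coding lengths were taken from Ensembl (BDGP6.54, dm6). Scripts were tested on simulated data. Python 3.11.15, scipy 1.17.1 and matplotlib 3.10.9 were used.

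The receptors and lists were chosen with earlier results of these data known. Named were the 4 receptors, in each list up to 3 genes with the highest and 3 with the lowest log2 fold change among those past the threshold, list genes past it between time points, the 3 genes most alike to each receptor (log2 CPM, prior count 2), and Clk, tim and Pdf. Galphas, Galphaq, Galphai, Pu, rut, dnc, krz and the neighboring genes were added after their values were seen. Sequences were not used here.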

Additional observations from a re-analysis of the deposited data

How the results depend on the processing

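Refits gave 212 values, 1 for each receptor, comparison and setting. Of these 193 kept direction and side of the threshold, 8 lost a call, 1 gained one and 10 turned direction, all 10 in time or interaction fits with no call. Values of time and interaction had no call to lose. Of 17 refits between genotypes, Dop1R1 and Dop2R each kept their call in 15 and DopEcR in 13. Between genotypes no receptor turned direction. ZT2 alone gave 3.28 for Dop2R, −0.69 for Dop1R1 and −0.33 for DopEcR, and ZT14 alone 2.65, −0.43 and −0.59, with 0 receptors called in either. The number of receptors called was 2 to 4 with a library left out. The log2 difference then ran from 2.71 to 3.42 for Dop2R, −0.64 to −0.49 for Dop1R1, −0.55 to −0.41 for DopEcR and 0.48 to 0.92 for Dop1R2. With library size as the only scaling the median of all genes was −0.14 in place of −0.01, 675 of 1462 called genes were higher in clk856 (805 of 1326 with TMM), and the receptors stood at 2.81, −0.70, −0.61 and 0.56. Without a filter the median was 0.16. Genes called between genotypes numbered 2123 by DESeq2, 8 at ZT2 alone and 340 at ZT14 alone (942 to 1380 with a library left out).

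For ZT14 minus ZT2 with a library left out, the receptors in clk856 ran from −0.10 to 0.24 (Dop1R1), −1.37 to −0.15 (Dop1R2), −0.62 to 0.25 (Dop2R) and −0.11 to 0.20 (DopEcR), and in nSyb from −0.31 to −0.06, −0.74 to −0.03, −0.73 to 1.29 and 0.23 to 0.40. The interaction ran from 0.09 to 0.43, −1.04 to 0.20, −1.42 to 0.61 and −0.42 to −0.12. No refit called a receptor in these 3 comparisons. All genes called in clk856 were 97 by the likelihood ratio test, 81 without filter, 85 by DESeq2, 4 with the replicate block and 0 in the fit of all 8 libraries (2 to 3 with a library left out). In nSyb they were 6 by the likelihood ratio test, 224 by DESeq2 and 1 in the fit of all 8 (0 to 1 with a library left out), and for the interaction 85, 98 without filter and 189 by DESeq2 (0 to 85, the highest without nSyb ZT2 R2). The cause was not tested.

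With the replicate block Dop2R was 3.14 (edgeR adjusted p = 0.00127), Dop1R1 −0.58 (0.0227), DopEcR −0.48 (0.0289) and Dop1R2 0.69 (0.225), and 1265 genes were called. R1 minus R2 differences correlated between groups at −0.03 to 0.03 across genes, so that the numbers do not pair the libraries.

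Shares of the summed receptor level moved with the length used. With coding length they were 15.9%, 4.77%, 18.1% and 61.3% in clk856 for Dop1R1, Dop1R2, Dop2R and DopEcR, and 20.7%, 2.57% and 74.6% in nSyb for Dop1R1, Dop1R2 and DopEcR. With the deposited length Dop2R was 13.2% and DopEcR 72.4% in clk856, and Dop1R2 3.16%, Dop2R 1.45% and DopEcR 84.8% in nSyb. Of 28 named list genes past the threshold between genotypes, 22 stayed past it in every refit over both time points. The others were tim (adjusted p 0.051 to 0.0518 without clk856 ZT14 R1 or R2, nSyb ZT2 R2 or nSyb ZT14 R1), Oamb, Ac13E, Pde8, sgg and Akt1, and with the block Pde8 (0.0541), sgg (0.0627) and Akt1 (0.0516) were not called.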
